A study of Mus musculus with 13 samples.

Results

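The interferon response genes described here are genes that interferons switch on, together with the transcription factors that act on them. They were measured in cells sorted for CD31, an endothelial surface protein, from SKOV3ip1 tumors. SKOV3ip1 is a human ovarian cancer cell line that was grown in mice. The treatment, the antibody B20, binds VEGF-A, which drives blood vessel growth. The genes were chosen by name from a list of 34, of which 31 had a probe set of their own among 18193 genes on the arrays. Isg15 shares its probe set with another gene, and Oas1g and Ifi44 were not in the platform table used here, so these 3 are not analysed here. Where a gene had several probe sets, the brightest on average over the 13 arrays stood for it.

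The labels gave 5 arrays to a control group, 4 to a group sensitive to B20 and 4 to a group resistant to it, each as a biological replicate. Per the methods of the study, controls received a control IgG antibody, and mice given B20 were assigned to the sensitive or resistant group by the bioluminescence of the tumor. Tumors were collected at various times, so response to B20 and time on treatment cannot be told apart. The methods list female athymic nude mice, which lack most T cells, beside C57BL/6 mice, and the labels give neither strain nor age. Since no source links an array to an animal, p-values cover the spread between these samples only.

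Interferons are cytokines that cells release when they sense foreign or misplaced nucleic acids. Type I interferon binds the receptor chains Ifnar1 and Ifnar2, the kinases Jak1 and Tyk2 then phosphorylate STAT proteins, and a complex with Stat2 and Irf9 binds the interferon-stimulated response element in the promoters of target genes. Interferon gamma acts through its own receptor and the gamma activated sequence, with Irf1 and the guanylate-binding proteins among its targets. Macrophages and endothelial cells both respond to these signals.

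The response element is shown first for some of the members that carry it ahead of the transcription start. RefSeq promoter windows of GRCm38.p6, from 250 bases before to 50 bases after each start, were listed for 25 of the 34 genes. They were searched on both strands for the core of the interferon-stimulated response element, which is GAAA, any 2 bases and GAAA again, and for TTCNNNGAA, the gamma activated sequence. The response element was found in 13 of the 25 genes, or 52.0%, against 3.99% of all 27025 genes in the table. The gamma activated sequence was found in 6 of the 25, or 24.0%, against 9.55% of all genes, and a match of letters is not evidence of binding. The runs below are printed on the strand of the gene, with the matching bases in capitals, and where the motif lies on the other strand it reads as its reverse complement. They lie at chr19:34640773-34640825 for Ifit1 (plus strand), chr12:26456551-26456584 for Rsad2 (minus strand), chr8:71537575-71537614 for Bst2 (minus strand), chr5:120907526-120907557 for Oas1a (minus strand) and chr7:104465208-104465241 for Trim30a (minus strand).
Ifit1: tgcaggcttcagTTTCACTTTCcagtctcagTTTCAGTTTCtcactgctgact
Rsad2: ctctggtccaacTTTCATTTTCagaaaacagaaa
Bst2: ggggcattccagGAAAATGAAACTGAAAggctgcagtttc
Oas1a: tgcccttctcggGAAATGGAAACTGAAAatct
Trim30a: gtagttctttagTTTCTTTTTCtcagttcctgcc

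Ifit1 held 2 matches, between 104 and 76 bases before its start. Bst2 and Oas1a each held 2 overlapping matches, from 130 to 115 and from 20 to 5 bases before the start. Rsad2 held 1 match from 120 to 111 bases before its start, and Trim30a held 1 from 36 to 27. Matches ahead of the start in Ifit3, Gbp2, Gbp3, Stat2, Oas3, Isg15 and Oas1g are not printed here. Windows of Ifit2, Oasl1, Isg20, Cmpk2, Ifi35 and Xaf1 had no match to the response element, and Ifih1 had its match after the start. Dhx58, Mx1 and Usp18 were not in the promoter table.

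All values below are log2 intensities after quantile normalization, with a floor at 2.01, and levels of different genes are not compared. All 31 members lay above the floor on at least 4 arrays and were tested among 15384 genes. Between 30 and 31 members exceeded the floor on each array. The arrays differed in cell type markers and RNA quality. The median of 20 endothelial markers was 6.999 and 7.39 on control arrays 4 and 5 and 2.85 to 4.28 on the other 11 arrays, where Pecam1, which encodes CD31, was at 2.32 to 3.41. The median of 20 macrophage and monocyte markers was 4.46, 5.09 and 4.996 on sensitive arrays 1, 2 and 3, and 8.03 to 9.29 on the others. Mesothelial markers stood at 8.31 and 7.88 on sensitive arrays 1 and 2 and at 2.58 to 6.97 elsewhere. On sensitive array 4 the Actb and Gapdh control probes read 5.95 higher at the 3 prime than at the 5 prime end, as happens when RNA is degraded, whereas the other 12 arrays gave 2.23 to 3.82. In bulk RNA of this kind, fewer cells of a type and less RNA per cell cannot be told apart.

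No interferon response gene passed the test between groups. By limma with Benjamini-Hochberg adjustment over all genes, 0 of 31 members passed between resistant and sensitive, between sensitive and control, or between resistant and control arrays, and 0% of all genes passed in each comparison. At an unadjusted p under 0.05 the comparisons held 1, 3 and 2 members in that order, all of them lower in the group named first. Of all genes 7.07%, 11.9% and 2.52% had such a p in either direction, and 2.53%, 6.57% and 1.53% had it with a lower value in the group named first. By the methods' t-test 0, 3 and 5 members had an unadjusted p under 0.05, and 0 passed after adjustment, while 3.44%, 8.91% and 6.78% of all genes had such a p by that test. The median of the 31 members was 5.57 ± 0.68 (SD, n = 5) on control, 5.12 ± 0.58 (SD, n = 4) on sensitive and 5.07 ± 0.25 (SD, n = 4) on resistant arrays. Arrays of 1 group differed more than the group means did, with list medians from 4.63 to 6.13 within the control group.

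**Figure D1:**
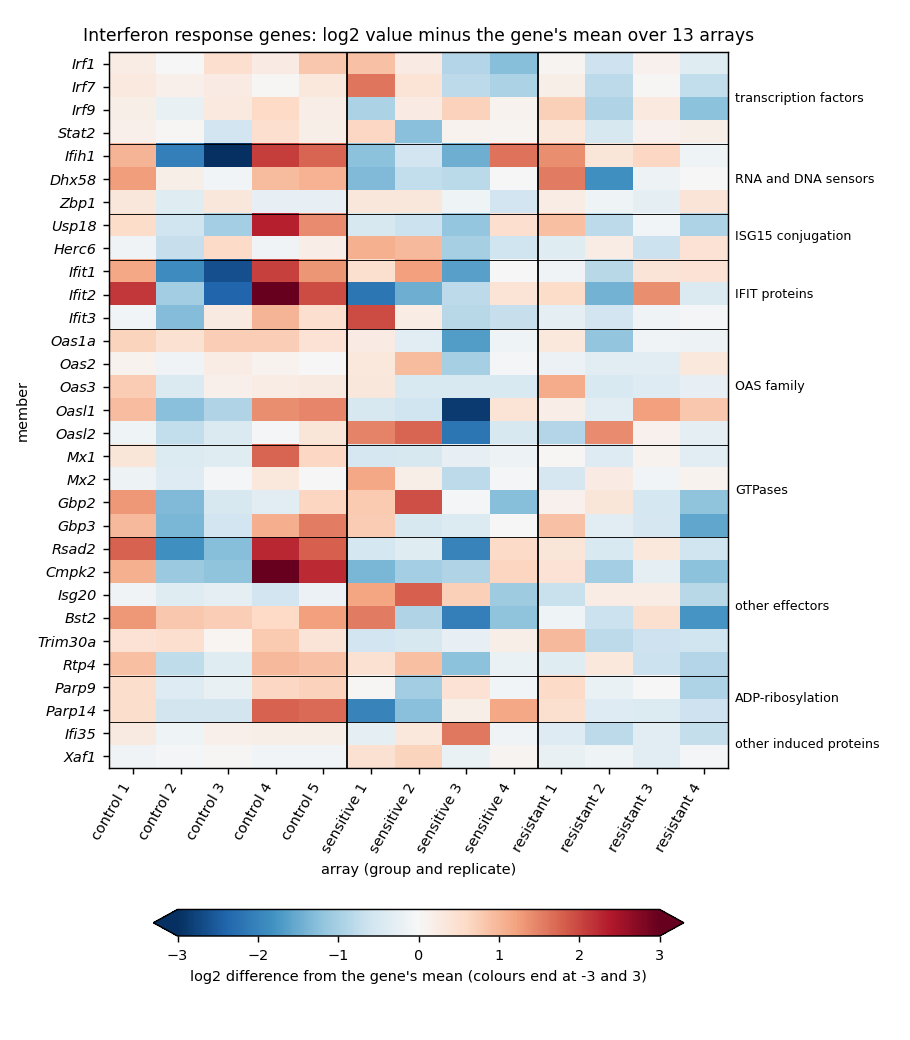
Log2 value of each of 31 members (rows, grouped by role) on each of 13 arrays (columns), less the mean of that gene over all arrays; red is above and blue below that mean, and the colors end at -3 and 3. Control arrays 1, 4 and 5 are red for Ifih1, Ifit1, Ifit2, Rsad2 and Cmpk2, and control arrays 2 and 3 are blue for the same genes.

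The members varied more from array to array than all genes tested did. Over the 13 arrays the range of a member had a median of 2.55, against 1.79 over all genes tested, and 14 of 31 members had a range over 3, or 45.2%, against 17.6% of all genes. The standard deviation within the control group had a median of 0.46 over the members and 0.32 over all genes, and that pooled within the 3 groups had medians of 0.77 and 0.52. Control array 4 held the highest value of 9 members and sensitive array 1 that of 7, while sensitive array 3 held the lowest value of 10. The 6 members with the widest range, chosen after their values were seen, were Ifit2, Ifih1, Cmpk2, Ifit1, Oasl1 and Rsad2.

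Ifit2 encodes a protein that binds foreign RNA and blocks its translation. Its values were 6.91, 3.74, 2.40, 7.99 and 6.74 on control arrays 1 to 5. They were 2.62, 3.32, 3.997 and 5.19 on sensitive arrays 1 to 4 and 5.33, 3.37, 6.19 and 4.35 on resistant arrays 1 to 4. Control arrays 1, 4 and 5 stood above every B20-treated array, while control arrays 2 and 3 lay within or below their range. The log2 fold change between sensitive and control arrays was -1.78 (SE 1.01, limma adjusted p = 0.477), and that between resistant and sensitive arrays was 1.03 (SE 1.07, limma adjusted p = 0.819).

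Ifit1, of the same family, had values of 6.01, 2.97, 2.21, 6.90 and 6.17 on control arrays 1 to 5. On sensitive arrays 1 to 4 it had 5.34, 6.08, 3.23 and 4.86, and on resistant arrays 1 to 4 it had 4.76, 4.03, 5.25 and 5.29. The same 3 control arrays were high and the same 2 were low, and the 3 group means, 4.85, 4.88 and 4.83, differed by far less than the spread within the control group (SD 2.11). The third family member, Ifit3, ranged from 3.35 to 6.61, with its highest value on sensitive array 1 and its lowest on control array 2.

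Ifih1, the RNA sensor MDA5, had values of 8.15, 5.09, 3.74, 9.22 and 8.88 on control arrays 1 to 5. It had 5.90, 6.55, 5.67 and 8.76 on sensitive arrays 1 to 4 and 8.54, 7.49, 7.75 and 7.003 on resistant arrays 1 to 4. The groups overlapped throughout, and the 4 resistant arrays lay within the control range, above control arrays 2 and 3. The fold change between resistant and sensitive arrays was 0.98 on the log2 scale (SE 1.08, limma adjusted p = 0.828), with a 95% interval from -1.33 to 3.28.

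Rsad2 encodes viperin, an enzyme that makes a chain-terminating nucleotide, and Cmpk2, its neighbor on the chromosome, encodes a mitochondrial nucleotide kinase. Rsad2 was at 11.18, 7.58, 8.13, 11.68 and 11.20 on control arrays 1 to 5, at 8.90, 9.05, 7.42 and 9.99 on sensitive arrays 1 to 4, and at 9.77, 8.95, 9.74 and 8.83 on resistant arrays 1 to 4. Cmpk2 was at 5.20, 2.997, 2.92, 7.89 and 6.37 on the control, 2.76, 3.09, 3.21 and 4.77 on the sensitive, and 4.56, 3.10, 3.83 and 2.89 on the resistant arrays, in the same order. Control arrays 1, 4 and 5 exceeded all 8 B20-treated arrays for both genes, and control arrays 2 and 3 did not. Between sensitive and control arrays Rsad2 differed by -1.12 (SE 0.81) and Cmpk2 by -1.62 (SE 0.88) on the log2 scale, with limma adjusted p of 0.542 and 0.463.

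**Figure D2:**
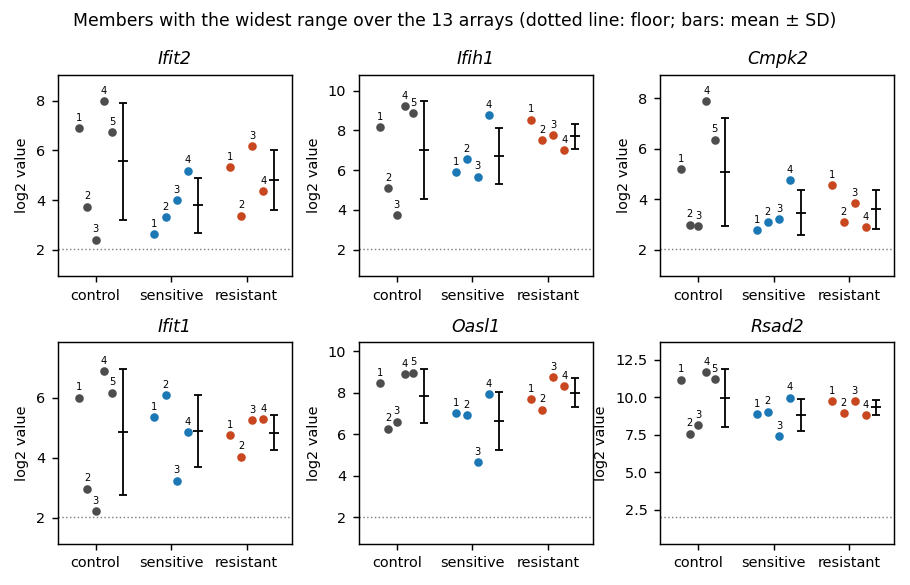
Quantile normalized log2 values of the 6 members with the widest range over the arrays, by group, with replicate numbers beside the points, bars for the mean ± SD and a dotted line at the floor of 2.01. In the control group arrays 1, 4 and 5 stand apart from arrays 2 and 3 for each of the 6 genes.

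The median of the macrophage markers was 9.14, 8.91 and 8.31 on control arrays 1, 4 and 5, against 8.03 and 8.07 on control arrays 2 and 3. Single markers of that list did not move together. Mrc1, a mannose receptor of macrophages, was at 9.59, 5.10, 3.67, 9.02 and 8.72 on control arrays 1 to 5. The scavenger receptor Marco was at 8.49, 4.64, 2.72, 8.38 and 7.44. Both had the same control arrays high and low as the members with the widest range, a split that Oas1a and Bst2 lacked. Itgam was at 7.01, 7.99, 7.02, 7.02 and 5.64 and Fcer1g at 8.05, 8.37, 8.51, 8.06 and 7.89 on those arrays, without that split. Mesothelial medians were 4.29, 3.19 and 3.97 on the high arrays and 4.93 and 5.25 on control arrays 2 and 3. Endothelial markers were high on control arrays 4 and 5 and at 3.24 on control array 1, close to 3.22 and 3.59 on control arrays 2 and 3. Control array 1 had the highest medians of the control group for B cell markers (4.90), T and NK cell markers (4.47) and neutrophil markers (5.29). Without control arrays 4 and 5 the median log2 fold change of the members was -0.10 between sensitive and control arrays, against -0.34 with them, and -0.07 between resistant and control arrays, against -0.50. The part of macrophage, mesothelial and endothelial content in these differences was not tested.

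**Figure D3:**
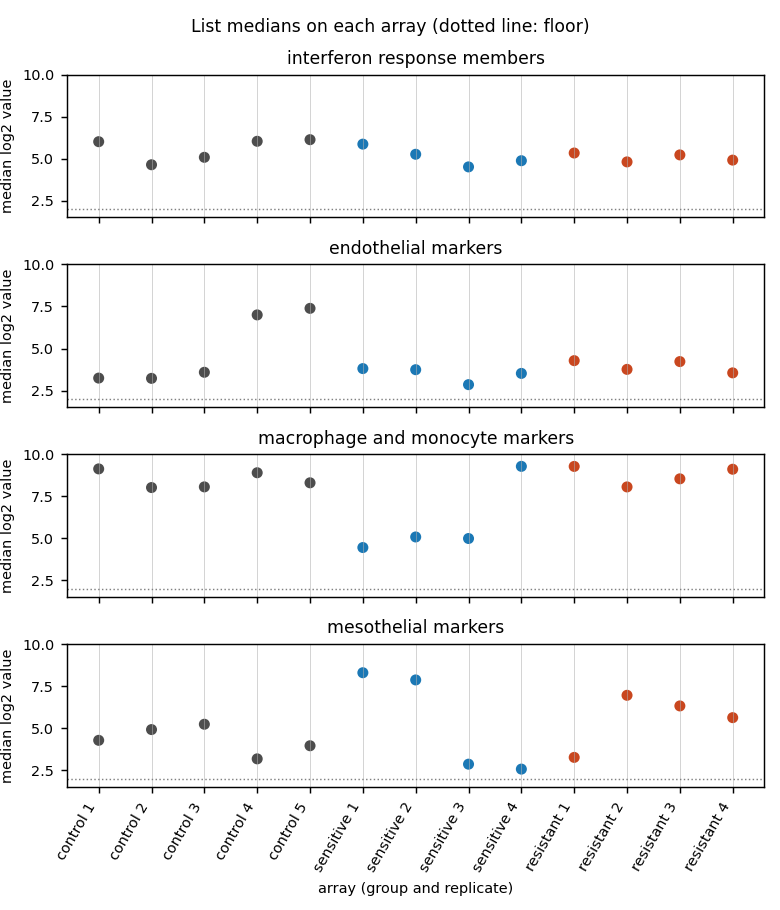
Median log2 value on each array of the 31 members and of 20 endothelial, 20 macrophage and monocyte and 10 mesothelial markers, colored by group, with a dotted line at the floor. The member median spans 4.51 to 6.13, and its high control arrays 1, 4 and 5 differ in endothelial markers (3.24, 6.999 and 7.39).

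Resistant and sensitive tumors were set against each other to ask what goes with escape from B20. Of the 31 members 17 had a positive and 14 a negative log2 fold change, while 57.9% of all genes were negative. Their median was 0.03 against -0.07 over all genes, and fold changes ran from -0.94 to 1.36. For 5 of the 12 members with several probe sets, another probe set had the opposite sign. The split also depended on the scaling. On the deposited values 21 members were positive, with a median of 0.16 against -0.04 over all genes. When arrays were shifted to a common median 25 were positive, with a median of 0.22 against 0.04. The groups did not overlap for 1 member, lower on the resistant arrays, against 1.87% of all genes in either direction and 0.897% in that direction. The median turned negative without sensitive replicate 3 (-0.14), sensitive replicate 4 (-0.05), resistant replicate 1 (-0.11) or resistant replicate 3 (-0.02). It was also negative (-0.06) without sensitive arrays 1, 2 and 3 together, which leaves only sensitive array 4, with the sign of degraded RNA. No direction is therefore given for the list.

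Ifi35, an interferon-induced protein that associates with the STAT partner Nmi, was the member whose groups did not overlap. It had values of 7.20, 6.81, 7.24 and 6.87 on resistant arrays 1 to 4 and 7.33, 7.90, 9.17 and 7.48 on sensitive arrays 1 to 4. All resistant arrays lay below all sensitive arrays, and also below control arrays 1 to 5, at 7.86, 7.47, 7.74, 7.76 and 7.77. Resistant differed from sensitive arrays by -0.94 (SE 0.36, limma adjusted p = 0.609). Leaving out sensitive replicate 3 gave -0.54, and on the deposited values without quantile normalization it was -0.55 and the groups overlapped. Other probe sets of Ifi35 differed by -0.31 and -0.69 between these groups.

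Oasl1, which limits the translation of Irf7 in mice, had values of 7.71, 7.19, 8.76 and 8.33 on resistant arrays 1 to 4 and 7.04, 6.94, 4.65 and 7.93 on sensitive arrays 1 to 4. Only sensitive array 4 reached into the resistant range. The log2 fold change was 1.36 (SE 0.74, limma adjusted p = 0.748), and 0.70 without sensitive replicate 3. Without sensitive arrays 1, 2 and 3, the arrays with low macrophage markers, it was 0.07. Only sensitive array 4, with the sign of degraded RNA, was then left in its group. On the control arrays Oasl1 was at 8.46, 6.28, 6.62, 8.91 and 8.98, a spread wide enough to cover every resistant array.

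Isg20, an exonuclease that degrades RNA, was highest in sensitive tumors with few macrophage transcripts. It had values of 4.33, 5.23, 5.22 and 4.17 on resistant arrays 1 to 4, 6.18, 6.78, 5.71 and 3.92 on sensitive arrays 1 to 4, and 4.89, 4.63, 4.70, 4.43 and 4.82 on control arrays 1 to 5. Sensitive arrays 1, 2 and 3 were above every other array, and sensitive array 4 was below every other array. Between resistant and sensitive arrays Isg20 differed by -0.91 (SE 0.50, limma adjusted p = 0.748). With sensitive replicate 4 left out it was the only member to pass, at -1.48 (SE 0.37, limma adjusted p = 0.0498) between resistant and sensitive arrays and at 1.52 (SE 0.35, limma adjusted p = 0.0262) between sensitive and control arrays, in fits that called 429 and 700 genes in all. Without sensitive arrays 1, 2 and 3, where macrophage markers were low, the difference between resistant and sensitive arrays was 0.85, of opposite sign. That difference rests on sensitive array 4 as the only array of its group, the one with the sign of degraded RNA. The part of cell content and of RNA quality in these values was not tested. Xaf1, a proapoptotic partner of the inhibitor XIAP, was at 4.38, 4.47, 4.26 and 4.55 on resistant arrays 1 to 4, at 5.06, 5.26, 4.39 and 4.68 on sensitive arrays 1 to 4, and at 4.49, 4.53, 4.64, 4.51 and 4.52 on control arrays 1 to 5. Sensitive arrays 1 and 2 were the highest. Resistant differed from sensitive arrays by -0.43 (SE 0.27, limma adjusted p = 0.775), and by 0.22 when all probe sets of the gene were averaged.

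Sensitive and control tumors were compared to describe how tumors that responded to B20 differed from tumors given control IgG. Of the members 21 of 31 were negative, or 67.7%, against 41.6% of all genes, with a median log2 fold change of -0.34 against 0.09 over all genes. Another probe set had the opposite sign for 4 of the 12 members with several. The groups did not overlap for 1 member, lower on the sensitive arrays, against 3.02% of all genes in either direction and 1.59% in that direction. The median was -0.64 on the deposited values and -0.76 when arrays were shifted to a common median, and 29 and 30 of 31 members were then negative. Sign therefore depended on the scaling for 9 members, Gbp2, Herc6, Ifi35, Ifit1, Ifit3, Mx2, Oasl2, Xaf1 and Zbp1, which were positive after quantile normalization. The median was -0.199 without control replicate 1, -0.18 without control replicate 4, -0.19 without control replicate 5 and -0.10 without control arrays 4 and 5 together.

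Oas1a makes the short adenylate chains that activate RNase L. It had values of 7.43, 7.24, 7.51, 7.51 and 7.20 on control arrays 1 to 5, 7.03, 6.45, 5.09 and 6.63 on sensitive arrays 1 to 4 and 7.09, 5.60, 6.66 and 6.62 on resistant arrays 1 to 4. Every B20-treated array lay below every control array. The fold change was -1.08 on the log2 scale (SE 0.39, limma adjusted p = 0.330) between sensitive and control arrays and -0.89 (SE 0.39, limma adjusted p = 0.9999) between resistant and control arrays. On the deposited values the sensitive and control arrays still did not overlap, at -1.51, while the resistant and control arrays did, at -1.001. Without sensitive replicate 3 the first difference was -0.68, and without resistant replicate 2 the other was -0.58.

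Bst2, or tetherin, holds budding virus particles on the cell surface and also marks plasmacytoid dendritic cells. It was at 6.09, 5.60, 5.52, 5.38 and 6.01 on control arrays 1 to 5, at 6.35, 3.88, 2.74 and 3.58 on sensitive arrays 1 to 4, and at 4.65, 4.14, 5.28 and 3.02 on resistant arrays 1 to 4. Sensitive array 1 was the highest of all arrays, and the other 7 B20-treated arrays lay below all control arrays. On the log2 scale the difference was -1.58 (SE 0.62, limma adjusted p = 0.348) between sensitive and control and -1.45 (SE 0.62, limma adjusted p = 0.9999) between resistant and control arrays, and the first was -2.38 without sensitive replicate 1. The median of 7 other markers of these dendritic cells was 2.96 to 4.57 and highest on sensitive array 3, where Bst2 was lowest. Among them Siglech was at 2.55 to 3.93 over all arrays, while Spib, Tcf4 and Ccr9 were at 7.58, 6.41 and 5.56 on sensitive array 3. The remaining markers, Ly6d, Klk1 and Cox6a2, were at 3.48, 4.44 and 4.57 there, below 4.06, 6.22 and 6.03 on sensitive array 1. Tcf4 was higher on control arrays 4 and 5, at 6.83 and 7.01, where endothelial markers were high. Sensitive array 3 also had the highest B cell median, 6.70.

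Dhx58, or LGP2, a helicase that tunes RNA sensing, was at 5.38, 4.28, 4.05, 5.07 and 5.17 on control arrays 1 to 5 at 2.79, 3.39, 3.32 and 4.10 on sensitive arrays 1 to 4, and at 5.67, 2.27, 3.97 and 4.11 on resistant arrays 1 to 4. Only sensitive array 4 reached the control range. The log2 fold change was -1.39 (SE 0.55, limma adjusted p = 0.357) between sensitive and control arrays. It was -0.72 without sensitive arrays 1, 2 and 3, which leaves only sensitive array 4, with the sign of degraded RNA. With the mean of all probe sets of Dhx58 it was -0.39, and the other 2 probe sets averaged 2.01 and 2.26, at or close to the floor. Mx1, a dynamin-like GTPase that blocks virus replication, was at 2.87, 2.10, 2.15, 4.27 and 3.15 on control arrays 1 to 5 at 2.01, 2.05, 2.28 and 2.37 on sensitive arrays 1 to 4, close to the floor, and at 2.54, 2.14, 2.62 and 2.21 on resistant arrays 1 to 4. Sensitive differed from control arrays by -0.73 (SE 0.34, limma adjusted p = 0.422), by -0.39 without control replicate 4, and by -0.20 without control arrays 4 and 5.

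**Figure D4:**
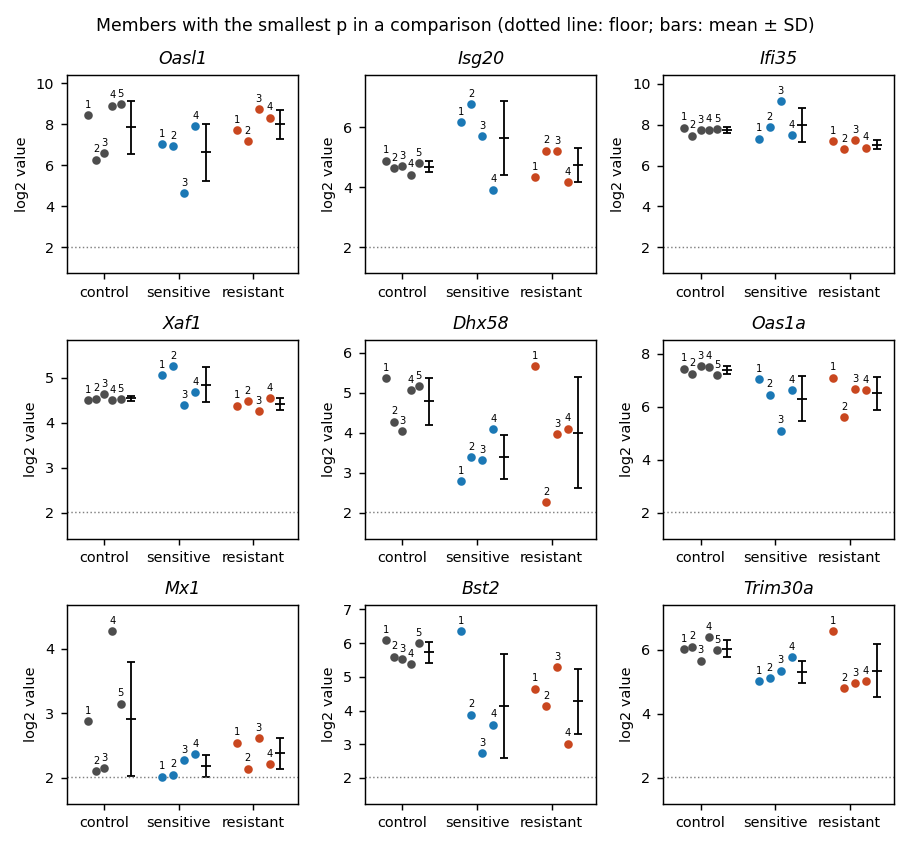
Quantile normalized log2 values of the 9 members with the smallest p in a comparison, by group, with replicate numbers beside the points, bars for the mean ± SD and a dotted line at the floor of 2.01. All 8 B20-treated arrays lie below the control arrays for Oas1a, and the 4 resistant arrays lie below all others for Ifi35.

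Resistant and control tumors were compared to see what remained different after escape. The control arrays are those of the preceding comparison, so both carry the same control values. Of the members 26 of 31 were negative, or 83.9%, against 45.7% of all genes, with a median log2 fold change of -0.50 against 0.03 over all genes. Among the 12 members with several probe sets, 4 had another of opposite sign. The groups did not overlap for 3 members, Oas1a, Bst2 and Ifi35, all lower on the resistant arrays, against 2.7% of all genes in either direction and 1.39% in that direction, and on the deposited values each of the 3 overlapped. The median was -0.20 without control replicate 4, -0.32 without control replicate 5 and -0.29 without resistant replicate 2.

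Ifi35 differed by -0.69 (SE 0.34, limma adjusted p = 0.9999) between resistant and control arrays. Trim30a, which restrains signalling from Toll-like receptors, was at 6.03, 6.10, 5.66, 6.39 and 5.98 on control arrays 1 to 5 and at 6.58, 4.80, 4.97 and 5.01 on resistant arrays 1 to 4. Resistant array 1 was the highest of all arrays, and the other 3 resistant arrays lay below all control arrays. The log2 fold change was -0.69 (SE 0.36, limma adjusted p = 0.9999), and -1.10 without resistant replicate 1. On sensitive arrays 1 to 4 Trim30a was at 5.01, 5.10, 5.35 and 5.78, and it differed from control by -0.72 (SE 0.36, limma adjusted p = 0.443). The other probe set of the gene differed from control by -1.54 on the resistant and -1.65 on the sensitive arrays.

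**Figure D5:**
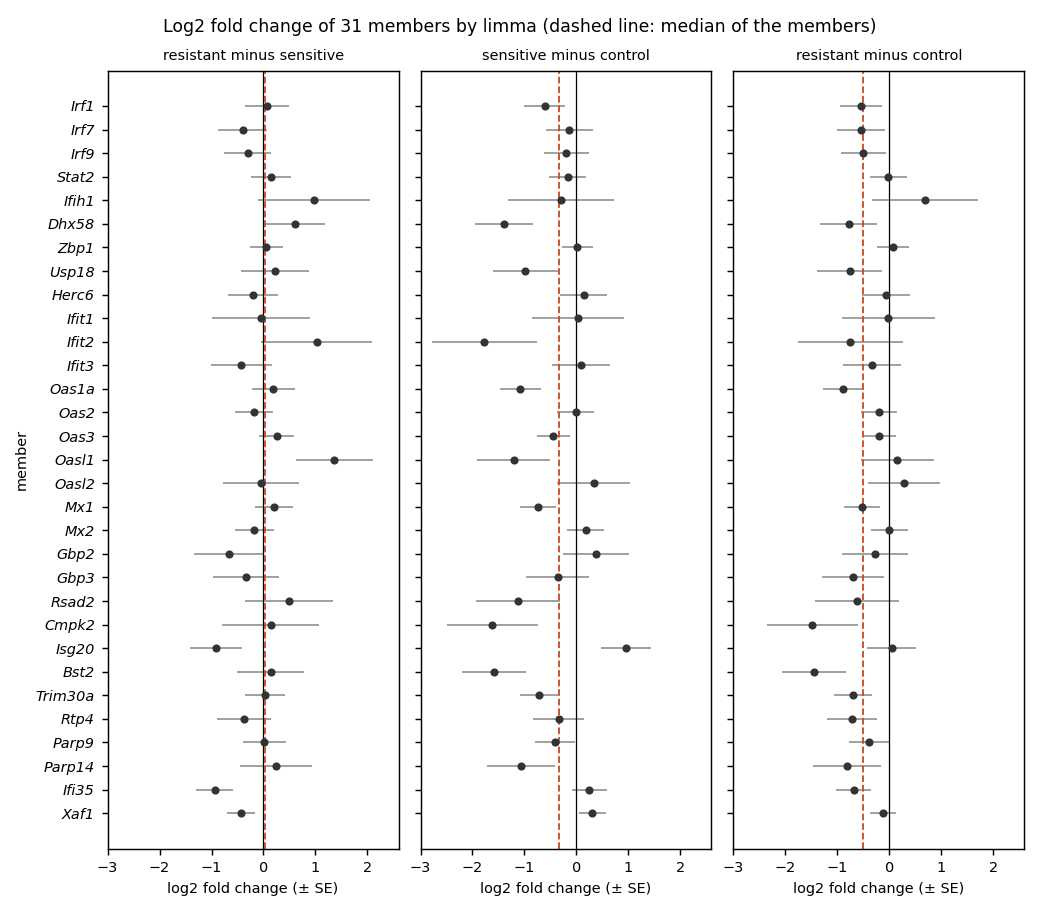
Log2 fold change by limma with its standard error for each of 31 members in 3 comparisons, with a dashed line at the median of the members. The medians stand at 0.03, -0.34 and -0.50, and 0 members passed after adjustment over all genes.

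After quantile normalization the transcription factors of the response showed small differences between groups. Irf1, a target and mediator of interferon gamma, had means of 8.41 ± 0.31 (SD, n = 5) on control, 7.80 ± 0.995 (SD, n = 4) on sensitive and 7.86 ± 0.36 (SD, n = 4) on resistant arrays. Between sensitive and control arrays Irf1 differed by -0.61, with overlap. That difference was -1.04 on the deposited values and -1.15 when arrays were shifted to a common median. In both of these scalings the sensitive arrays lay below all control arrays. Irf7, which amplifies type I interferon production, had means of 6.21, 6.07 and 5.66, and was highest on sensitive array 1 (7.60) and lowest on sensitive array 4 (5.04). Irf9 and Stat2, which act in that complex, differed by -0.50 (SE 0.44) and -0.02 (SE 0.36) between resistant and control arrays. All 4 factors were negative in both comparisons with control, with limma adjusted p from 0.512 to 0.9999.

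Usp18, which removes Isg15 from proteins and damps the type I receptor, had its highest value on control array 4 (5.74) and its lowest on sensitive array 3 (2.24). It differed by -0.98 (SE 0.62) between sensitive and control arrays. Herc6, a ligase for Isg15, ranged from 4.02 on sensitive array 3 to 6.10 on sensitive array 1. Between sensitive and control arrays its probe set used here differed by 0.14, and the others by -1.06, -1.02 and -0.34. Of the other OAS genes, Oasl2 spanned 3.59 on sensitive array 3 to 7.50 on sensitive array 2, Oas2 3.58 to 5.52 on the same arrays, and Oas3 exceeded the floor on 9 of 13 arrays.

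The guanylate-binding proteins Gbp2 and Gbp3, GTPases that attack the vacuoles of intracellular microbes, differed by 0.38 (SE 0.63) and -0.36 (SE 0.60) between sensitive and control arrays. Gbp2 was highest on sensitive array 2 (9.004) and Gbp3 on control array 5 (9.97). Mx2 differed by at most 0.18 in absolute value in any comparison. The ADP-ribosyltransferases Parp9 and Parp14 differed by -0.41 (SE 0.39) and -1.06 (SE 0.66) between sensitive and control arrays, and Parp14 was at 7.99 and 7.91 on control arrays 4 and 5 against 5.66 on both control arrays 2 and 3. Rtp4, a receptor transporter protein, ranged from 4.51 to 6.70. After quantile normalization Zbp1, a sensor of Z-form nucleic acid, had the narrowest range of all members, 0.94. It then differed by no more than 0.07 on the log2 scale in any comparison. Between sensitive and control arrays its other probe set differed by 0.46. When arrays were shifted to a common median, the probe set used differed by -0.28 between those groups.

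The other genes of the pathway, with 84 tested of the 97 listed and the 85 that had a probe set, also gave 0 calls in each comparison. At an unadjusted p under 0.05 there were 6 higher and 1 lower between resistant and sensitive, 5 higher and 6 lower between sensitive and control, and 2 higher and 3 lower between resistant and control arrays. In all these were 8.33%, 13.1% and 5.95% of the 84 genes, against 7.07%, 11.9% and 2.52% of all genes. Their medians were -0.04, -0.17 and -0.18. The groups did not overlap for 0 of the 84 genes between resistant and sensitive arrays, against 1.87% of all genes. Between sensitive and control arrays 1 higher and 1 lower gene did not overlap, against 3.02% of all genes. Between resistant and control arrays 1 higher and 2 lower genes did not overlap, against 2.7% of all genes. Gbp5 and the interferon lambda genes were among those not analysed here.

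Transcripts of the ligands were low on most arrays. Interferon gamma, Ifng, was at 5.35 on control array 1 and 5.12 on sensitive array 3 and at no more than 2.79 on the other 11 arrays. These were also the arrays with the highest T and NK cell medians, 4.47 and 4.96, against 2.66 to 3.09 elsewhere, and with the highest B cell medians, 4.90 and 6.70. Sensitive array 3, with Ifng at 5.12, held the lowest value of 10 members and had a member median of 4.51. Control array 1, with Ifng at 5.35, held the lowest value of 0 members and had a member median of 6.01. A link between Ifng and the members was not tested. Interferon beta, Ifnb1, ranged from 3.27 to 4.88 and differed by 0.56 (SE 0.38) between resistant and sensitive arrays. Ifna2 had a mean of 3.44 ± 0.79 (SD, n = 4) on sensitive and 2.88 ± 0.43 (SD, n = 5) on control arrays, and Ifna4 was above the floor on 2 arrays only.

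Among the receptors, Ifnar2, a chain of the type I receptor, averaged 7.34 ± 0.53 on resistant (SD, n = 4) and 6.19 ± 0.75 on sensitive arrays (SD, n = 4), a log2 difference of 1.15 (SE 0.38, limma adjusted p = 0.548). The lambda receptor Ifnlr1 lay near the floor, at 2.04 to 3.44. The kinase Jak1 was at 7.82, 7.17, 7.95 and 7.21 on resistant arrays 1 to 4 and 5.66 to 6.95 on the control arrays, which did not overlap, with a difference of 0.90 (SE 0.38, limma adjusted p = 0.9999). Tyk2 differed by -0.89 (SE 0.44) between sensitive and control arrays. Irf3 and Irf5 differed by -0.64 (SE 0.35) and 0.56 (SE 0.56) between resistant and sensitive arrays.

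Sensors, inhibitors and effectors outside the member list are given by 2 genes a class, those with the smallest p. The kinase Ikbke, which activates Irf3 and Irf7, had means of 4.43 ± 1.91 (SD, n = 4) on sensitive and 6.94 ± 0.47 (SD, n = 5) on control arrays, a difference of -2.52 (SE 0.69, limma adjusted p = 0.244). The endosomal RNA receptor Tlr7 differed by 1.70 (SE 0.56, limma adjusted p = 0.548) between resistant and sensitive arrays. Pias1, an inhibitor of STAT proteins, differed by 1.44 (SE 0.34, limma adjusted p = 0.192) between sensitive and control arrays, which did not overlap, and the repressor Irf2bp1 by -0.98 (SE 0.36, limma adjusted p = 0.604) between resistant and sensitive arrays. Psmb10, an immunoproteasome subunit, differed by -1.77 (SE 0.57, limma adjusted p = 0.290) and Tapbp, which loads peptide on MHC class I, by -0.52 (SE 0.35) between sensitive and control arrays. For Psmb10 all sensitive arrays lay below all control arrays.

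The membrane protein Ifitm3 differed by -1.61 (SE 0.56, limma adjusted p = 0.310) and Cd274, the checkpoint ligand PD-L1, by -1.65 (SE 0.59, limma adjusted p = 0.321) between sensitive and control arrays. The gamma-inducible GTPases Igtp and Irgm2 differed by -1.06 (SE 0.67) and -1.04 (SE 0.78) between resistant and sensitive arrays. Without sensitive replicate 4, Cd274, Il10rb and Tlr7 passed between resistant and sensitive arrays, at 2.17, 1.66 and 2.26. In the same setting Cd274, Ikbke, Il10rb, Pias1 and Ptpn2 passed between sensitive and control arrays, at -2.24, -3.32, -1.62, 1.57 and 1.33. These 3 and 5 pathway genes were called in fits that called 429 and 700 of 15337 genes. The sensitive arrays left in those fits are the 3 with low macrophage markers, and the array left out is the one with the sign of degraded RNA. The part of macrophage content and of RNA quality in these calls was not tested.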

How the data were processed

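Expression was measured on 13 Affymetrix arrays. Per the labels, biotinylated cRNA was processed with MAS5, whereas the published methods name Illumina bead chips and BRB-ArrayTools. The values deposited by the authors, for 45101 Affymetrix probe sets, were taken as log2 intensities; no source used here gives the log base, the exact normalization or a genome build. Depth has no meaning for arrays, and their number limits the precision.

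Arrays were quantile normalized, and values under the 30th percentile (2.01) were set to it. Probe sets with 1 symbol (34958) were used, those with several (932) or none listed (9211) were not. Genes above the floor on at least 4 arrays (15384 of 18193) were tested with limma 3.58.1 in R 4.3.3 over all groups with an intensity trend, two-sided, with Benjamini-Hochberg adjustment and a threshold of 0.05. Probe sets of the OAS, IFIT, GBP and Trim30 families may detect paralogs.

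Members and lists were chosen with earlier results of these data known. Values on every array are given for the 4 members with the smallest p in each comparison, and the named pathway genes are 2 of each class by smallest p. The fit was tested on simulated data. Same-numbered arrays correlated above 0.1 in 4 of 12 cases, so numbers were not taken as pairs. Alternatives covered scaling, floor, filter, probe set, variance model, samples, test, replicate block and left-out arrays.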

Additional observations from a re-analysis of the deposited data

Results flagged for a closer look

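Within a group, 4 of 93 gene and group combinations held an array far from the rest by Dixon's criterion, which flags about 1 in 20 groups by chance. The distance to the nearest array, as a share of the range of the group, was 1 for Oas3 on the sensitive arrays, where array 1 stood at 2.80 and the others at the floor of 2.01, which have no order among them. It was 0.874 for Oas3 on the resistant arrays, where array 1 stood at 3.57 and the others at 2.01 to 2.21. Resistant array 1 also stood apart for Trim30a, at 6.58 against 4.80 to 5.01, with a share of 0.883. For Xaf1 control array 3, at 4.64, lay apart from the others at 4.49 to 4.53, with a share of 0.742.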

How the results depend on the processing

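Of the values for the 9 named members under the alternatives, 236 of 239 kept their direction and their side of the threshold. Xaf1 between resistant and sensitive arrays turned to 0.22 with the mean of all probe sets. Isg20 turned to 0.85 without sensitive arrays 1, 2 and 3, which leaves only sensitive array 4, and passed at -1.48 without sensitive replicate 4. The cause was not tested. Counts of members called stayed at 0 except when arrays were left out singly, where they ran from 0 to 1 between resistant and sensitive and between sensitive and control arrays. Counts of pathway genes called then ran from 0 to 3 and from 0 to 5, and both upper values arose without sensitive replicate 4. The member median ran from -0.14 to 0.22 between resistant and sensitive, from -0.76 to -0.10 between sensitive and control and from -0.62 to -0.07 between resistant and control arrays over all alternatives. With the replicate number as a block, 0 members were called in each comparison and the medians were 0.03, -0.19 and -0.32, and 5 of 13 arrays correlated best with an array of their own number. Values near the floor, as for Mx1 and Oas3, understate differences.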
